A study of Mus musculus with 12 samples.

Results

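The genes described here encode the protein kinases C and RasGRP proteins through which phorbol esters are known to act in cells: Prkca, Prkcb, Prkcd, Prkce, Prkch, Prkcq, Rasgrp1, Rasgrp2, Rasgrp3 and Rasgrp4. They were taken by gene symbol from a table of 27487 genes, which held all 10. Their transcripts bear on the series because phorbol myristate acetate (PMA), a phorbol ester, was used to prepare cells of 1 of the 3 groups.

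Protein kinase C (PKC) enzymes phosphorylate serine and threonine residues once diacylglycerol, the lipid that phospholipase C releases from the membrane, binds their C1 domains. PMA binds the same domains and is broken down slowly, and prolonged exposure is known to drive several PKC proteins into degradation, a loss that takes place on the protein and that transcript levels do not report. PKC alpha and beta also need calcium, whereas PKC delta, epsilon, eta and theta do not. RasGRP proteins carry a C1 domain as well and load GTP onto Ras or Rap, which feeds the ERK kinase cascade. In macrophages and microglia these receptors act in the oxidative burst, in phagocytosis and in the induction of inflammatory genes.

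RNA with a poly(A) tail was sequenced from BV2 cells, a mouse microglial line made by viral transformation, in 12 libraries. The 4 CTR libraries came from BV2 cells grown by themselves, and the 4 Neu libraries from BV2 cells grown together with neutrophils isolated from mice. For the 4 Neu+NETS libraries the neutrophils had been given PMA so that they would release extracellular traps, webs of chromatin and granule proteins. The series asks what neutrophils and their traps change in microglia. No genotype, age, PMA dose, exposure time or removal of neutrophils before lysis is given in the sources used here, and the labels name retina as the tissue although the cells are a line. BV2 cells given PMA without neutrophils were not analysed here, so PMA and traps cannot be told apart. Nothing says that replicates were separate cultures, so the spread behind the p-values may be technical.

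Estimated counts summed to between 53512190 and 68316549 per library. About 4 count units appear to stand for each fragment read, so that 12 units, or 3 fragments, served as the floor. All 14 microglia and macrophage markers were present, led by Cd68, and summed to 1327 to 1401 FPKM (fragment counts divided by transcript length and by library size) in CTR and 1376 to 1427 in Neu. In Neu+NETS they summed to 866 to 878, and 14 of 14 were lower than in CTR. The retinal list reached at most 1.00 FPKM in any library, nearly all of it Pde6b. In these bulk samples fewer cells of a type and less RNA per cell cannot be told apart.

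Promoter sequence is shown for the 3 members that represent the patterns below: Prkcd and Rasgrp3, abundant and lower in Neu+NETS, and Prkca, scarce and not lower there. The letters are the 250 bases before an annotated start site, 5′ to 3′ on the strand of the gene, from RefSeq on GRCm38.p6, a build other than the GRCm39 of the gene table. Capitals mark GAGGAA, the core letters of the site of PU.1 (Spi1), the myeloid transcription factor, on either strand.
Prkcd, chr14:30626209-30626458, minus strand: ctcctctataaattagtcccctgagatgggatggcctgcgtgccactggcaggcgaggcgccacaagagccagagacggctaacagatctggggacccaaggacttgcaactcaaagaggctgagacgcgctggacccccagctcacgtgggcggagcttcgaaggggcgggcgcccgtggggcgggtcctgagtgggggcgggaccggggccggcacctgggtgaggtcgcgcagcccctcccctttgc
Rasgrp3, chr17:75435655-75435904, plus strand: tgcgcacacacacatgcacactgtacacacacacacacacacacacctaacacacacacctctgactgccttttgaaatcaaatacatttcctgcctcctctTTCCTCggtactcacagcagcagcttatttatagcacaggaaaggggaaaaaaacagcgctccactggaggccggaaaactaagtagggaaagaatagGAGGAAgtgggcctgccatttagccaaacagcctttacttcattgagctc
Prkca, chr11:108343889-108344138, minus strand: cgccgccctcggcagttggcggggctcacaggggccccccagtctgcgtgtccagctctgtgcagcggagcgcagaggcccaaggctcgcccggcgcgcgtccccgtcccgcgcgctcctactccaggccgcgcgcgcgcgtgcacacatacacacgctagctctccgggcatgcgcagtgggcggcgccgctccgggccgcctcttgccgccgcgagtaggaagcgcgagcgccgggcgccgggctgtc
The windows searched held 300 bases, 250 before and 50 after the start, and were found for 7 of the 10 members (not Prkce, Prkch or Rasgrp4), with 10 windows in all. TGANTCA, the letters bound by AP-1 and known as the TPA response element after a phorbol ester, stood on either strand in 0 of these 10 windows and in 7.81% of 32851 promoters. GAGGAA stood in 3 of the 10 windows, those of Prkcq, Rasgrp1 and the first Rasgrp3 start, and in 28.3% of all promoters. Rasgrp3 carried it at -148 on the minus strand and at -50 on the plus strand, counted from the start site. The Prkca window was 75.3% G or C with 42 CpG dinucleotides and the Prkcd window printed 69.3% with 26, beside medians of 52.7% and 7 over all promoters. The Rasgrp3 window had 48.3% G or C with 5 CpG. Each of these genes but Prkca had another annotated start, whose window held 51.3% G or C with 2 CpG for Prkcd and 52.7% with 9 for Rasgrp3, so the composition depends on the start taken.

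The receptor pool of BV2 cells consisted almost entirely of 3 transcripts. Rasgrp3, Prkcd and Prkch together held 93.4% to 94.1% of the members' summed FPKM in CTR, 92.6% to 93.4% in Neu and 89.6% to 91.0% in Neu+NETS. The sum was 62.7 ± 1.55 FPKM in CTR (SD, n = 4), 73.9 ± 1.43 in Neu and 45.8 ± 1.81 in Neu+NETS. The sums ran from 61.2 to 64.8, 72.2 to 75.6 and 44.6 to 48.4 in the same order, so the groups did not overlap.

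**Figure D1:**
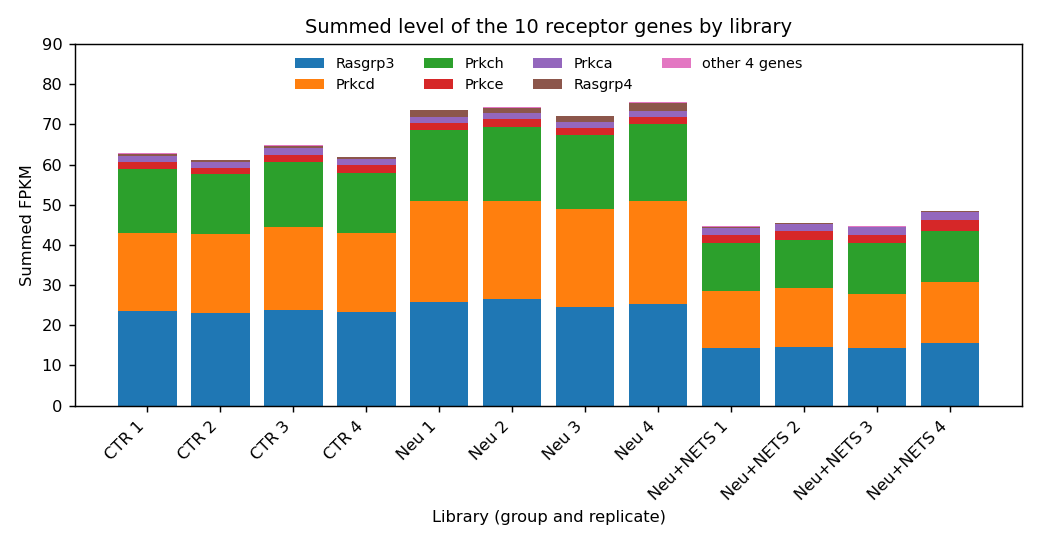
Summed FPKM of the 10 receptor genes (y axis, linear) in each of the 12 libraries (x axis), each bar divided by gene. Rasgrp3, Prkcd and Prkch fill nearly the whole of every bar, and the 4 Neu+NETS bars, at 44.6 to 48.4 FPKM, are the shortest.

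Levels per length fell into tiers in each group. In CTR the order was Rasgrp3, Prkcd and Prkch with ranges that did not overlap, then Prkce and Prkca, whose ranges did, then Rasgrp4 at 0.460 to 0.522 FPKM. The remaining 4, Rasgrp2, Rasgrp1, Prkcq and Prkcb, reached at most 0.0898 FPKM in those libraries. In Neu and in Neu+NETS the ranges of Rasgrp3 and Prkcd overlapped, so their order there is not resolved. Rasgrp4 stood among Prkce and Prkca in Neu, with overlapping ranges, and below both in the other groups.

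All 10 genes passed the filter on low counts, although Prkcb, Prkcq and Rasgrp1 never exceeded 34 count units in a library. These 3 are described by their levels and calls, and they enter the counts and medians below. Prkcb and Prkcq passed only with the Neu libraries, where both were highest on average. Their differences from Neu are therefore not independent of the filter. Prkcb is among the 5 members higher in Neu than in CTR, and both are among the 7 lower in Neu+NETS than in Neu. Called genes are those with an adjusted p under 0.05 in edgeR's quasi-likelihood test (Benjamini-Hochberg over 16387 genes, two-sided). Between Neu and CTR 5 members were higher and 0 lower, where 26.1% of all genes tested were called higher and 27.9% lower. At an unadjusted p under 0.05 the count of lower members was also 0, as it was in DESeq2. Between Neu+NETS and CTR 1 member was higher and 5 were lower, beside 21.6% and 23.7% of all genes. Between Neu+NETS and Neu 1 was higher and 7 were lower, beside 29.4% and 33.1%. Median log2 fold changes of the members were 0.34, -0.62 and -0.90 in these comparisons, against 0.020, 2.1e-04 and -0.049 over all genes. The comparisons share groups, so their values are not independent.

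Limma on log2(FPKM + 1) covered 12540 genes, against 16387 in edgeR, and used the FPKM without the scaling of counts in edgeR. The totals are therefore not over the same genes. With limma the split of all called genes was 4099 higher and 2945 lower between Neu+NETS and CTR, against 3535 and 3885 in edgeR. Between Neu+NETS and Neu it was 5478 and 3770, against 4819 and 5422. The median over the genes limma covered was 0.092 in the last comparison, a shift of over 0.1 from that in edgeR. Prkca, Prkcd, Prkce, Prkch, Rasgrp3 and Rasgrp4, the 6 members with a limma value, kept their sign in both comparisons.

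**Figure D2:**
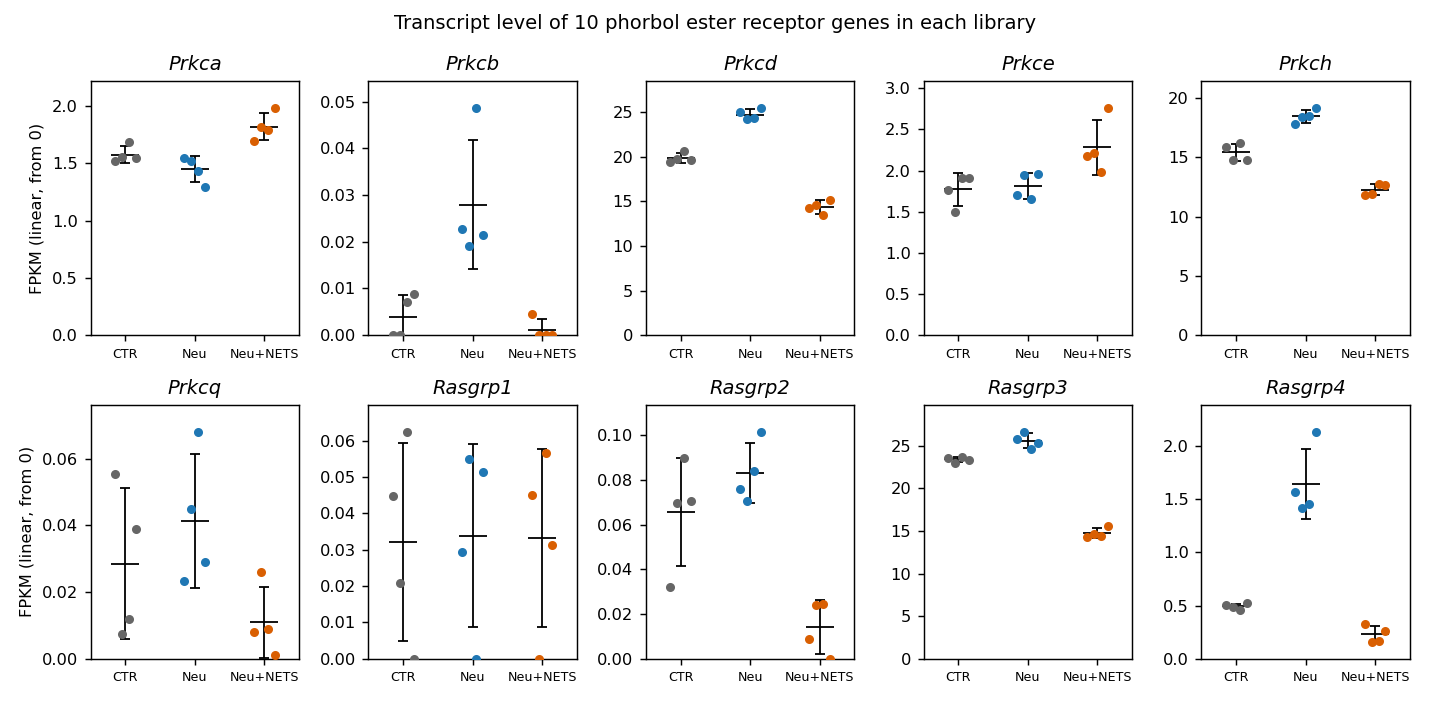
FPKM (y axes, linear, from 0) of each receptor gene in the 4 libraries of CTR, Neu and Neu+NETS. Points are libraries, the horizontal line is the mean and bars are ± SD. Prkcd, Prkch, Rasgrp3 and Rasgrp4 are lowest in Neu+NETS and highest in Neu, while Prkca and Prkce are highest on average in Neu+NETS. Points of Prkcb, Prkcq and Rasgrp1 stand for at most 34 count units.

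Among the calcium-independent kinases, Prkcd and Prkch rose modestly in Neu and fell in Neu+NETS, whereas Prkce was higher in Neu+NETS. Prkcd encodes PKC delta, which acts in apoptosis and in priming the phagocyte NADPH oxidase (ENSMUSG00000021948, GRCm39 chromosome 14, 30317311 to 30348167, minus strand). Its 4 CTR libraries held 19.4, 19.8, 20.7 and 19.6 FPKM. Neu libraries held 24.997, 24.21, 24.334 and 25.453, and Neu+NETS libraries 14.3, 14.6, 13.4 and 15.2. Every Neu library was above every CTR library and every Neu+NETS library below. The log2 fold change was 0.37 ± 0.034 (SE) in Neu against CTR (adjusted p = 6.3e-08) and -0.52 ± 0.034 in Neu+NETS against CTR (adjusted p = 2.4e-09). Set against Neu, Neu+NETS was 1.85-fold lower (log2 fold change -0.89 ± 0.034, adjusted p = 5.5e-13).

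Prkch encodes PKC eta, known from epithelial differentiation and from macrophages (ENSMUSG00000021108, chromosome 12, 73631570 to 73824959, plus strand). It stood at 15.9, 14.8, 16.2 and 14.8 FPKM in CTR, at 17.8, 18.4, 18.5 and 19.2 in Neu, and at 11.8, 12.0, 12.7 and 12.6 in Neu+NETS. Again the 3 groups did not overlap, in the same order as for Prkcd. Prkch rose by a log2 fold change of 0.32 ± 0.037 in Neu (adjusted p = 1.3e-06) and fell by 0.38 ± 0.037 on the log2 scale in Neu+NETS against CTR (adjusted p = 3.0e-07). The difference between Neu+NETS and Neu was -0.69 ± 0.037, or 1.62-fold (adjusted p = 3.8e-11).

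Prkce encodes PKC epsilon, which macrophages need for full responses to lipopolysaccharide (ENSMUSG00000045038, chromosome 17, 86475213 to 86965347, plus strand). CTR libraries held 1.761, 1.496, 1.915 and 1.911 FPKM, Neu libraries 1.70, 1.95, 1.66 and 1.95, and Neu+NETS libraries 2.18, 2.21, 1.98 and 2.76. CTR and Neu overlapped, and the Neu+NETS range lay above both by a margin smaller than its own spread. The log2 fold change in Neu+NETS against CTR was 0.31 ± 0.104 (adjusted p = 0.0205). That call was lost without CTR replicate 2 (adjusted p = 0.0726) and without Neu+NETS replicate 4 (adjusted p = 0.0946). Against Neu the difference was 0.22 ± 0.104 (adjusted p = 0.0728), with a 95% interval of 0.0028 to 0.44 for a single test. It passed in DESeq2 (adjusted p = 0.0441), in limma on log2(FPKM + 1) (adjusted p = 0.0224) and in 3 other settings (limma with a pseudocount of 0.1, the 2 groups fitted alone and without Neu+NETS replicate 3). Neu and CTR differed by 0.092 ± 0.104, with an interval of -0.13 to 0.31.

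Prkcq encodes PKC theta, the isoform of T cell activation (ENSMUSG00000026778, chromosome 2, 11176919 to 11306033, plus strand). Its count units were 24, 4, 6 and 16 in CTR, 12, 23, 34 and 15 in Neu, and 4, 12, 5 and 1 in Neu+NETS, so most libraries lay near the floor of 12. Neu+NETS and Neu overlapped at 12 units, although the test called the gene lower in Neu+NETS (adjusted p = 0.0311), a call lost in 7 of 18 alternatives, among them leaving out Neu replicate 2 or 3 or Neu+NETS replicate 1, 3 or 4 (adjusted p of 0.0641 to 0.114).

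Of the calcium-dependent kinases, Prkca was expressed at a low level and Prkcb was close to absent. Prkca encodes PKC alpha, the most widely expressed of the calcium-dependent isoforms (ENSMUSG00000050965, chromosome 11, 107824213 to 108234754, minus strand). CTR libraries held 1.52, 1.56, 1.68 and 1.55 FPKM, Neu libraries 1.547, 1.522, 1.431 and 1.296, and Neu+NETS libraries 1.69, 1.82, 1.79 and 1.98. The Neu+NETS libraries were above all others, though the lowest of them, at 1.69, nearly met the highest CTR library, at 1.68. Neu+NETS exceeded Neu by a log2 fold change of 0.22 ± 0.078 (adjusted p = 0.0202), and this call was lost without Neu replicate 4 (adjusted p = 0.0833), without Neu+NETS replicate 4 (adjusted p = 0.0738) and with upper-quartile scaling (adjusted p = 0.0654). Against CTR the difference was 0.16 ± 0.078 (adjusted p = 0.121), with a 95% interval of -0.010 to 0.32. Between Neu and CTR the difference was -0.067 ± 0.079 (adjusted p = 0.504, interval -0.23 to 0.099).

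Prkcb encodes PKC beta, abundant in B cells and in neutrophils (ENSMUSG00000052889, chromosome 7, 121887974 to 122233625, plus strand). It had 0, 0, 4 and 5 count units in CTR, 14, 12, 28 and 13 in Neu, and 3, 0, 0 and 0 in Neu+NETS. Only Neu libraries reached the floor, and 3 of those 4 lay within 2 units of it. The test called it higher in Neu than in CTR (adjusted p = 0.0357) and lower in Neu+NETS than in Neu (adjusted p = 0.00393). The first call was lost in 9 of 18 alternatives, among them leaving out CTR replicate 1, 2 or 3 or any 1 of the Neu libraries (adjusted p of 0.0525 to 0.130). The second was lost in 0 of 18. Prkcb passed the filter on low counts through its Neu libraries alone, the group where it is highest. Neither call, nor how often it was kept, is therefore independent of that filter.

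The RasGRP genes spanned the widest range of levels, from Rasgrp3, the most abundant member on average in each group, to Rasgrp1, near the floor. Rasgrp3 encodes an exchange factor for Ras and Rap that acts below B cell and Toll-like receptors (ENSMUSG00000071042, chromosome 17, 75742891 to 75836049, plus strand). It held 23.6, 23.0, 23.7 and 23.4 FPKM in CTR, 25.9, 26.6, 24.6 and 25.4 in Neu, and 14.3, 14.7, 14.4 and 15.5 in Neu+NETS. The Neu+NETS libraries stood far below the rest, and the Neu libraries just above CTR. Rasgrp3 fell by 0.72 ± 0.032 on the log2 scale in Neu+NETS against CTR (1.65-fold lower, adjusted p = 1.1e-11). In Neu it rose by 0.18 ± 0.031 (adjusted p = 7.9e-05), which limma on log2(FPKM + 1) put at 0.12. The difference between Neu+NETS and Neu was -0.90 ± 0.032 (1.87-fold lower, adjusted p = 1.5e-13).

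Rasgrp4, known from mast cells and neutrophils, had the largest fitted fold changes among the members above the floor in all libraries (ENSMUSG00000030589, chromosome 7, 28834276 to 28851967, plus strand). CTR libraries held 0.504, 0.483, 0.460 and 0.522 FPKM, Neu libraries 1.56, 1.42, 1.46 and 2.13, and Neu+NETS libraries 0.325, 0.159, 0.166 and 0.264. The groups did not overlap, with Neu highest and Neu+NETS lowest. Neu was 3.46-fold above CTR (1.79 ± 0.191 on the log2 scale, adjusted p = 4.4e-07), and Rasgrp4 was 2.21-fold lower in Neu+NETS than in CTR (-1.14 ± 0.199, adjusted p = 1.5e-04). Neu+NETS was 7.63-fold lower than Neu (-2.93 ± 0.203, adjusted p = 1.1e-09). On the log2(FPKM + 1) scale of limma, which compresses such low levels, these 3 differences were 0.82, -0.28 and -1.10.

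Rasgrp2 encodes the Rap exchange factor CalDAG-GEFI, which activates integrins in platelets and neutrophils (ENSMUSG00000032946, chromosome 19, 6449370 to 6465246, plus strand). It had 26, 61, 68 and 51 count units in CTR, 70, 65, 78 and 88 in Neu, and 9, 20, 25 and 0 in Neu+NETS. CTR and Neu overlapped, every Neu+NETS library was below them, and 2 of those 4 were under the floor. The log2 fold change was -2.13 ± 0.577 against CTR (adjusted p = 0.00612) and -2.55 ± 0.578 against Neu (adjusted p = 0.001002). Between Neu and CTR it was 0.42 ± 0.526 (adjusted p = 0.537). Rasgrp1, the Ras exchange factor of T cells (ENSMUSG00000027347, chromosome 2, 117110474 to 117173482, minus strand), had 0 to 24 units in any library, with a library at 0 in each group. No difference in it was detectable at this depth (adjusted p of 0.924 to 0.997).

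**Figure D3:**
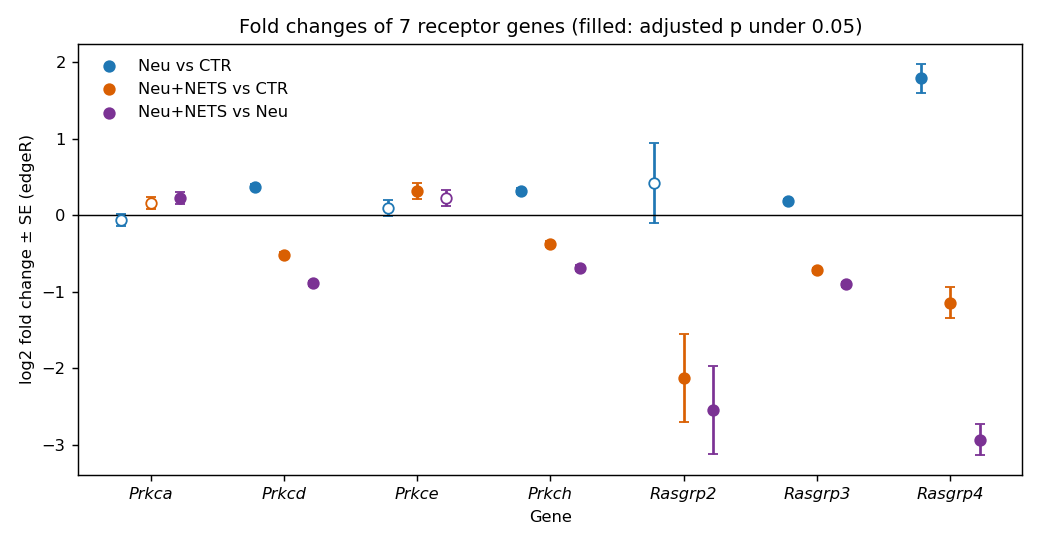
Log2 fold changes ± SE from edgeR (y axis) of the 7 members with more than 34 count units in some library (x axis), for the 3 comparisons. Filled points have an adjusted p under 0.05. Prkcd, Prkch, Rasgrp3 and Rasgrp4 lie above 0 in Neu against CTR and below 0 in both comparisons of Neu+NETS, and Prkca and Prkce do not follow them.

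Across the 12 libraries the abundant members varied together. Pearson's r of log2(FPKM + 1) was 0.97 between Prkcd and Prkch, 0.96 between Prkcd and Rasgrp3 and 0.93 between Prkch and Rasgrp3, while that of Prkca with Prkcd was -0.83. These values describe libraries that share 3 group means, and carry no test. Among 7083 other genes with a mean FPKM of at least 5, those closest to Prkcd were Lrp1, Laptm5 and Arap1, each with r = 0.996. Closest to Prkch were Vwa5a (r = 0.992), Atp2b1 and Cd300ld (both 0.988), and closest to Rasgrp3 were Gpr183 (0.997), Tlr13 (0.996) and Dab2 (0.995). Gpr183, a receptor for oxysterols, stood at 7.28 FPKM in CTR, 9.21 in Neu and 0.661 in Neu+NETS, a far larger drop than that of Rasgrp3. The genes closest to Prkca were Slc4a1ap (0.964), Ppp4r1 (0.930) and Atxn3 (0.927). For Prkce they were Paf1 (0.924), Adnp2 (0.904) and Ankrd17 (0.899).

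Relatives of PKC outside the member list showed no common direction. Of 8 tested kinases of the other PKC and PKD list, 4 were higher and 2 lower in Neu against CTR, 3 and 2 in Neu+NETS against CTR, and 3 and 3 in Neu+NETS against Neu. Beside this and the lists below, 26.1% of all genes tested were called higher and 27.9% lower in Neu against CTR. The shares were 21.6% and 23.7% in Neu+NETS against CTR, and 29.4% and 33.1% in Neu+NETS against Neu. Prkci, an atypical PKC of cell polarity with no binding of diacylglycerol, went from 8.69 ± 0.366 FPKM in CTR to 7.04 ± 0.310 in Neu and 10.1 ± 0.381 in Neu+NETS (adjusted p = 1.5e-04 and 0.00698 against CTR). Prkd3, a protein kinase D activated by PKC, followed the same course at 3.02, 2.44 and 4.29 FPKM (adjusted p = 0.00382 and 1.8e-05 against CTR).

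Genes that make or remove diacylglycerol changed in both directions in Neu. The kinases that convert it to phosphatidic acid gave 4 higher and 2 lower of 7 in Neu against CTR, 1 and 2 in Neu+NETS against CTR, and 2 and 4 in Neu+NETS against Neu. Dgkz, the most abundant of those named here, fell from 102 ± 1.57 FPKM in CTR to 70.3 ± 6.66 in Neu (adjusted p = 5.3e-08) and stood at 90.2 ± 3.43 in Neu+NETS. Dgkd rose to 84.2 ± 4.54 FPKM in Neu from 51.2 ± 1.08 in CTR (adjusted p = 1.1e-12), and was at 52.2 ± 1.10 in Neu+NETS. The phospholipase C list gave 4 higher and 1 lower of 9 in Neu, 1 and 4 in Neu+NETS against CTR, and 0 and 5 in Neu+NETS against Neu. The 1 lower in Neu was the phospholipase C-like gene Plcl2, which was also among those lower in both comparisons of Neu+NETS. Plcg2, which acts below Fc receptors and Trem2 in microglia, stood at 79.9 ± 3.06 FPKM in CTR, 79.7 ± 2.05 in Neu and 56.1 ± 1.33 in Neu+NETS, 1.48-fold below CTR (adjusted p = 8.1e-11).

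Other proteins with a C1 domain gave 6 higher and 1 lower of 7 in Neu against CTR, 1 and 3 in Neu+NETS against CTR, and 1 and 5 in Neu+NETS against Neu. Unc13a, a vesicle priming factor that binds phorbol esters, rose 4.14-fold in Neu (adjusted p = 3.0e-11), from 0.990 ± 0.139 to 3.95 ± 0.325 FPKM, and stood at 0.778 ± 0.104 in Neu+NETS.

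Regulators and substrates of PKC split evenly. Of 15 tested, 6 were higher and 6 lower in Neu, 4 and 4 in Neu+NETS against CTR, and 6 and 7 in Neu+NETS against Neu. Ncf1, the oxidase subunit p47phox that PKC phosphorylates, fell from 67.5 ± 0.948 FPKM in CTR to 27.3 ± 0.987 in Neu+NETS (2.56-fold lower, adjusted p = 7.5e-16) and was at 75.3 ± 1.36 in Neu. Marcks, an actin-binding PKC substrate, was 4.97-fold lower in Neu+NETS than in CTR (adjusted p = 3.2e-08), at 0.304 ± 0.083 against 1.47 ± 0.288 FPKM. In the CARD-BCL10-MALT1 module, which links PKC to NF-kappaB, 5 of 6 were higher and 1 lower in Neu, and 0 higher and 5 lower in Neu+NETS against Neu, with 1 and 4 against CTR.

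Downstream of RasGRP, the Ras to ERK genes showed no common direction. Of 17 tested, 7 were higher and 6 lower in Neu, 6 and 4 in Neu+NETS against CTR, and 6 and 7 in Neu+NETS against Neu. Mapk3, which encodes ERK1, was highest in Neu and lowest in Neu+NETS, at 39.0 ± 1.49, 60.8 ± 2.16 and 24.2 ± 1.03 FPKM in CTR, Neu and Neu+NETS (adjusted p = 4.2e-11 and 4.9e-11 against CTR). Hras took the opposite course, at 10.4 ± 0.519, 5.43 ± 0.379 and 14.1 ± 0.629 (adjusted p = 8.2e-10 and 2.1e-05). Map2k1, the kinase MEK1, rose in both, from 38.1 ± 0.651 to 55.1 ± 3.35 in Neu and 60.4 ± 1.75 in Neu+NETS (adjusted p = 2.4e-10 and 2.6e-10). Other exchange factors and GTPase activating proteins gave 9 higher and 5 lower of 18 in Neu, 6 and 7 in Neu+NETS against CTR, and 6 and 12 in Neu+NETS against Neu. Rapgef2, an exchange factor for Rap, rose 3.06-fold in Neu (adjusted p = 2.1e-14) and was at 1.64 ± 0.095 FPKM in Neu+NETS against 2.15 ± 0.087 in CTR.

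**Figure D4:**
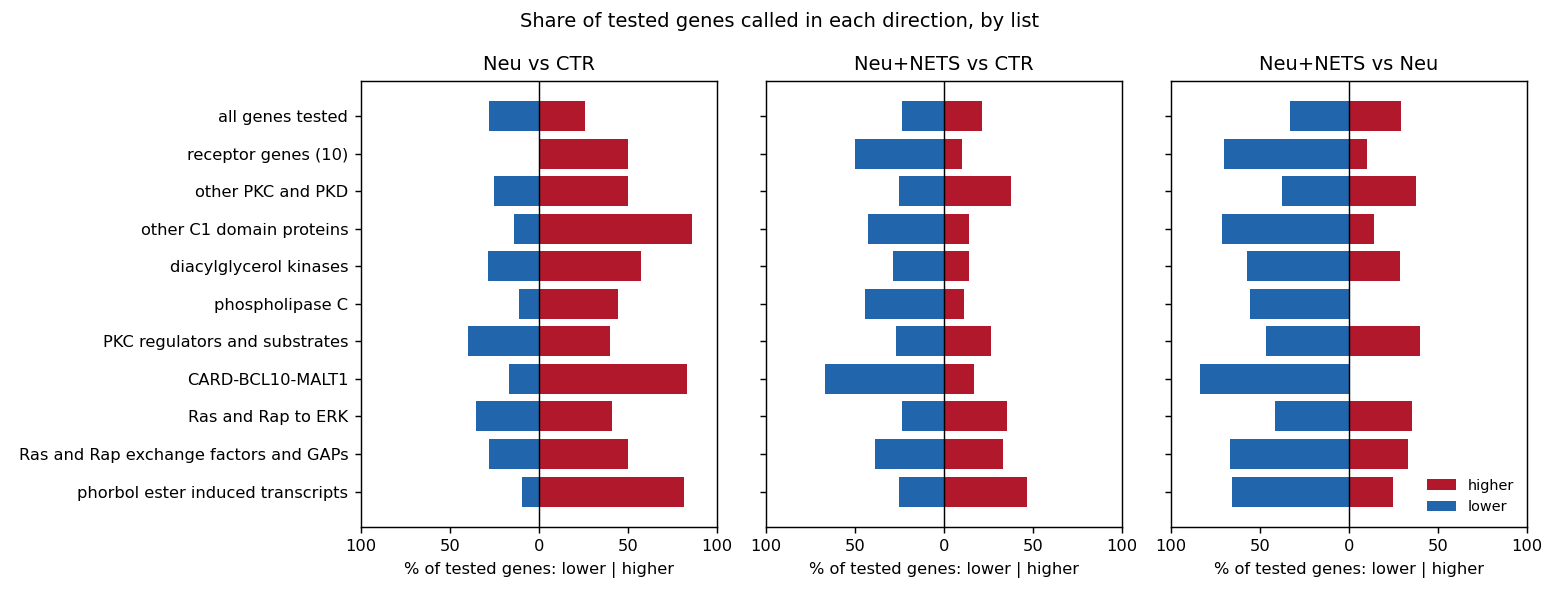
Percentage of the tested genes of each list called higher (red, to the right) or lower (blue, to the left) in the 3 comparisons, with all 16387 genes tested in the top row. The receptor genes show 5 of 10 higher in Neu, and 5 and 7 of 10 lower in the comparisons of Neu+NETS with CTR and with Neu.

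Transcripts known from other cells to be induced by phorbol esters were examined because PMA had been used in Neu+NETS only. The list was chosen with earlier results of these data known, and whether its genes report PMA in these cells was not tested. Of 32 tested, 26 were higher and 3 lower in Neu against CTR, with a median log2 fold change of 0.97. Between Neu+NETS and CTR 15 were higher and 8 lower, with a median of 0.23, and between Neu+NETS and Neu 8 were higher and 21 lower, with a median of -0.73. Of all genes tested, 26.1% were called higher and 27.9% lower in Neu against CTR, and 21.6% and 23.7% in Neu+NETS against CTR. Between Neu+NETS and Neu the shares were 29.4% and 33.1%. Medians over all genes were 0.020, 2.1e-04 and -0.049 in the same order. Ptgs2, the inducible cyclooxygenase, was at 3.14 ± 0.135 FPKM in CTR and rose 10.2-fold to 30.7 ± 0.864 in Neu (adjusted p = 2.6e-17) and was at 3.44 ± 0.245 in Neu+NETS (adjusted p = 0.199). Cdkn1a, the cell cycle inhibitor p21, rose from 15.1 ± 0.796 to 109 ± 2.47 in Neu (adjusted p = 2.6e-17) and to 24.2 ± 1.36 in Neu+NETS (adjusted p = 4.3e-09). Atf3, a stress-induced transcription factor, rose to 51.1 ± 1.22 FPKM in Neu from 24.7 ± 1.18 in CTR (adjusted p = 3.3e-13) and fell to 11.5 ± 0.480 in Neu+NETS (adjusted p = 5.6e-13).

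A smaller set was highest in Neu+NETS. Odc1, ornithine decarboxylase, a classical phorbol ester target in skin, stood at 136 ± 3.79 FPKM in CTR, 130 ± 0.881 in Neu and 244 ± 2.16 in Neu+NETS (1.74-fold above CTR, adjusted p = 9.0e-14). Plau, the urokinase protease, rose in both, from 129 ± 3.97 to 226 ± 2.38 in Neu and 257 ± 5.05 in Neu+NETS (adjusted p = 5.8e-14 and 2.9e-14). Fosl1, Hbegf, Spry2, Spry4, Spred1, Dusp1, Dusp2, Dusp4, Dusp5, Dusp6, Il1b, Fos and Ier2 lie outside the rule for named genes and were chosen after their values were seen. Fosl1, an AP-1 subunit, stood at 1.41, 1.92, 1.74 and 2.31 FPKM in CTR, at 3.30, 4.21, 3.11 and 3.87 in Neu, and at 12.0, 12.2, 7.04 and 7.26 in Neu+NETS. The groups did not overlap, with a log2 fold change of 2.33 ± 0.196 in Neu+NETS against CTR (adjusted p = 4.1e-08). Hbegf, a growth factor of the EGF family, was 3.40-fold higher in Neu+NETS than in CTR (adjusted p = 1.2e-10), and the ERK feedback genes Spry4 and Dusp5 were 2.77-fold and 2.22-fold higher (adjusted p = 9.1e-06 and 3.6e-09). Spry4 was scarce, at 0.281 FPKM in CTR and 0.808 in Neu+NETS, and Dusp5 was also 1.89-fold above CTR in Neu. The other Spry, Spred and Dusp genes listed were less changed in Neu+NETS against CTR. Dusp2, Dusp6 and Dusp4 were 1.67-fold, 1.24-fold and 1.11-fold higher (adjusted p = 6.1e-08, 2.8e-06 and 0.0055). Spry2, Spred1 and Dusp1 were not called (adjusted p = 0.528, 0.835 and 0.0941). Il1b, the cytokine interleukin-1 beta, was lower in Neu+NETS at 0.046 ± 0.057 FPKM against 0.704 ± 0.209 in CTR (adjusted p = 4.6e-05). The 3 genes lower in Neu against CTR were the immediate early genes Fos and Ier2 and the phosphatase gene Dusp2. Of these, Fos was lower in Neu+NETS than in CTR as well, and Ier2 and Dusp2 were higher.

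**Figure D5:**
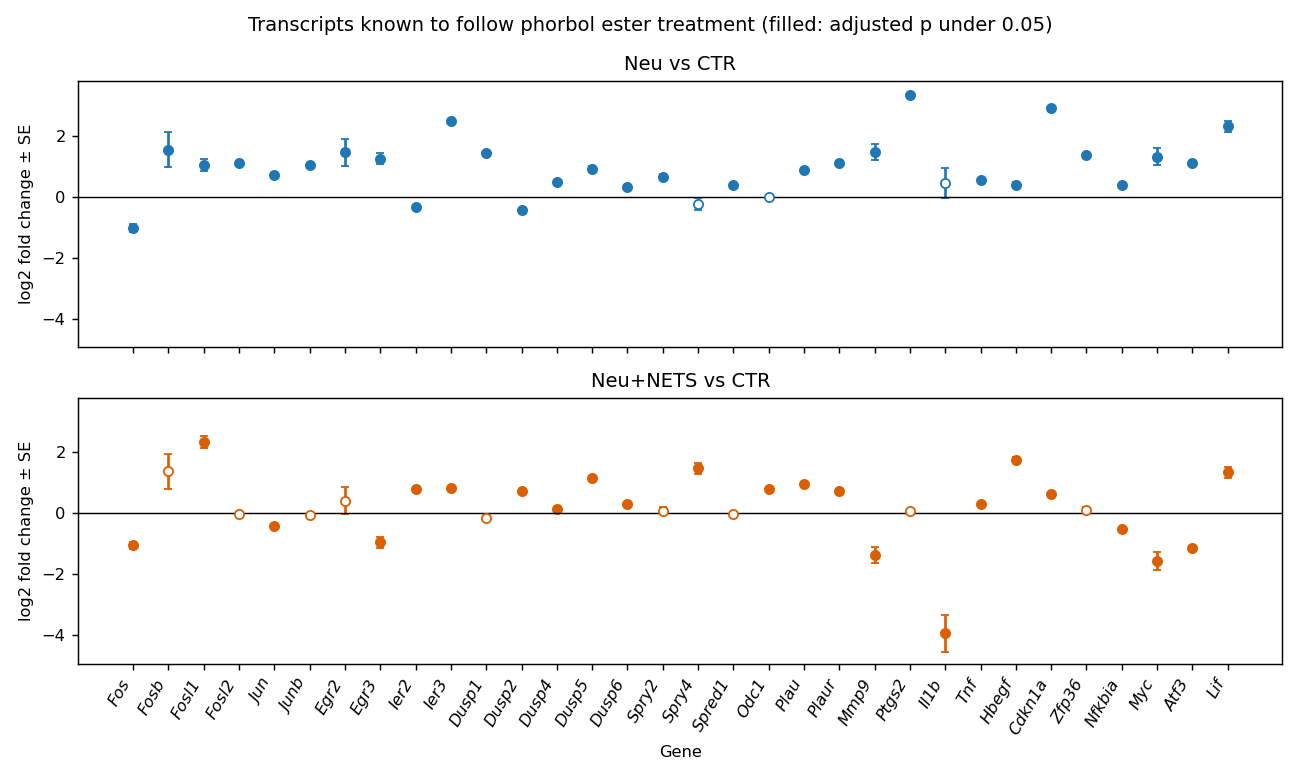
Log2 fold changes ± SE from edgeR (y axes) of the 32 tested transcripts known to be induced by phorbol esters (x axis), in Neu against CTR above and Neu+NETS against CTR below. Filled points have an adjusted p under 0.05. In Neu 26 lie above 0 and are filled, and in Neu+NETS 15.

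Some members are typical of blood cells other than microglia, so the markers of such cells are given beside them. The mature neutrophil list (9 of 15 genes in the table) summed to 5.76 to 7.35 FPKM in CTR, 14.6 to 15.4 in Neu and 0.866 to 1.38 in Neu+NETS. Of 6 tested, 3 were higher and 0 lower in Neu against CTR, and 5 were lower in Neu+NETS. The sum was carried by Il1r2, at 8.03 ± 0.302 FPKM in Neu, and by Csf3r, which CTR cells without neutrophils held at 5.15 ± 0.230. S100a8, a defining neutrophil transcript singled out after its values were seen, was at 0.257 ± 0.249 FPKM in CTR, 0.189 ± 0.045 in Neu and 0.055 ± 0.070 in Neu+NETS. Ngp was at 0 in every CTR library, and Mmp8, Ngp and Camp in every Neu+NETS library. S100a9 and Ly6g were on the list but not among the genes in the table. Neutrophil precursor markers (3 of 6 in the table) reached 0.624 FPKM at most, in Neu. They were led by Prtn3, at 0.399 ± 0.062 FPKM in Neu against 0.064 ± 0.081 in CTR.

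T cell markers (7 of 12) summed to 2.10 to 2.89 FPKM in CTR, 5.84 to 6.54 in Neu and 1.63 to 2.07 in Neu+NETS, led by Cd5 in CTR and Neu and by Lat in Neu+NETS. Trac was at 0 in every CTR and Neu library and Cd3d in every CTR and Neu+NETS library. Platelet markers (8 of 9) summed to 42.7 to 47.6, 54.4 to 62.2 and 40.8 to 43.7 FPKM, of which Pf4 was the only gene over 1 FPKM, with Gp6 at 0 in every CTR and Neu+NETS library and Gp9 in every Neu and Neu+NETS library. Mast cell and basophil markers (3 of 9) summed to 0.175 to 0.268 FPKM in CTR, 0.095 to 0.226 in Neu and 0.033 to 0.054 in Neu+NETS, with Kit at 0 in every Neu and Neu+NETS library. B cell markers (5 of 8) stayed at or under 0.479 FPKM, monocyte markers (5 of 5) under 0.578 and eosinophil markers (3 of 6) under 0.212. Erythroid markers (3 of 6) reached 1.07 FPKM at most, in Neu, and the single natural killer cell marker listed 0.079, in CTR. The part of other cells in the levels of Rasgrp4, Rasgrp2, Prkcb, Prkcq and Rasgrp1 was not tested, nor was that of the lower microglial markers in Neu+NETS in the levels of Rasgrp3, Prkcd and Prkch.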

How the data were processed

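Poly(A) RNA was sequenced in 12 libraries of BV2 cultures. The single table used gives estimated counts and FPKM per library, and 0 of its sample columns could not be matched. Per the submitters' processing notes the build was GRCm39 and the tools were edgeR, StringTie 1.3.4d and HISAT2 2.0.4, in roles not stated there. Neither strand setting nor annotation release is given in the sources used here; overlapping genes are therefore uncertain. The authors deposited whole-number estimated counts, which were not brought to a common depth, as the differing totals show. Of values from 2 to 41, 33.0% are multiples of 4, where an even spread gives 25%. Per the file headers, the FPKM are the authors' own.

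Genes passing filterByExpr (16387) were scaled by TMM (factors 0.970 to 1.03) and fitted across all 12 libraries, with no covariate, by edgeR 4.0.16 (glmQLFit and glmQLFTest, R 4.3.3), with a common biological coefficient of variation of 12.5%. Calls need a Benjamini-Hochberg adjusted p under 0.05. Each SE is the log2 fold change over the square root of F, and 95% intervals are unadjusted. Floors cover counting error only. The steps were tested on simulated data. Alternatives were DESeq2 1.42.0, limma 3.58.1 on log2(FPKM + 1) and log2(FPKM + 0.1) for genes with a mean FPKM of at least 0.5, no filter, a CPM of at least 1 in 4 libraries, RLE and upper-quartile scaling, a replicate block, the 2 groups compared alone, counts divided by 4, and each library left out.

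The members, the 9 pathway lists and the 12 marker lists were chosen with earlier results of these data known, and the GAGGAA motif was added later still. Named genes are all members, up to 4 called genes per list and comparison with the smallest adjusted p (those printed being picked from them after their values were seen), and the 3 genes closest to each member with a mean FPKM of at least 1. Protein sequences were not used here. Some results that the rule would name are not reported here.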

Additional observations from a re-analysis of the deposited data

Results flagged for a closer look

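Within groups of 4 libraries, the gap between the highest or lowest FPKM and its neighbour was divided by the range and compared with Dixon's 95% critical value, in 30 groups of member values, where chance marks about 1 in 20. A library stood apart for Prkcb in Neu, at 0.0486 FPKM beside 0.0227 for the next (a gap of 0.878 of the range), and for Prkcb in Neu+NETS, at 0.00447 FPKM beside 0 in the other 3. Both rest on few reads, with 28 and 3 count units against the floor of 12.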

How the results depend on the processing

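Across 22 alternatives the 30 fold changes of members gave 616 values, of which 576 kept their direction and their side of the threshold, 21 lost the call, 5 gained it and 14 changed sign. The number of members called stayed within 1.5 times in every alternative: 4 to 5 between Neu and CTR, 5 to 6 between Neu+NETS and CTR, and 6 to 9 between Neu+NETS and Neu. The fold changes of Prkcd, Prkch, Rasgrp3 and Rasgrp4 kept their direction and their call in all 22. All 14 changes of sign were of Rasgrp1, near the floor of 12 units. With a library left out its log2 fold change ran from -0.28 to 0.66 between Neu and CTR, from -0.41 to 0.53 between Neu+NETS and CTR, and from -0.54 to 0.28 between Neu+NETS and Neu. Between Neu+NETS and CTR it was 0.010 in DESeq2, 1.3e-04 with no filter and 0.014 with RLE scaling; the cause was not tested. Prkcb, Prkcq and Rasgrp1 gave no value under limma, the CPM filter or counts divided by 4, Rasgrp2 none under limma, and Prkcb and Prkcq none between Neu+NETS and CTR fitted alone, since they fell under those filters.

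Replicate numbers did not pair the libraries: correlations of same-numbered deviations ran from -0.055 to 0.043 over 12 pairs, and 0 were over 0.1. In 2 of these 12 pairs the same number gave the highest correlation. With the number as a replicate block, 4, 6 and 7 members were called in the 3 comparisons, without Prkcb between Neu and CTR (adjusted p = 0.0543) and Prkcq between Neu+NETS and Neu (adjusted p = 0.0557).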
